A study of Mus musculus with 10 samples.

Results

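Genes of neuronal processes were described in sorted epithelial cells of the mouse small intestine. Stmn2, Gap43, Nefl, Nefm, Tubb3, Tubb2b, Map1b, Dcx, Uchl1 and Mapt were taken by name from the gene table. They are 10 of its 54532 genes, and all 10 were among the 15703 genes with enough reads to be tested. The study sorted cells of Gucy2c-GFP mice, in which the GUCY2C promoter drives a GFP transgene, to ask how epithelial cells with very high GUCY2C differ from the bulk of the epithelium. Its 5 mice, 10 weeks old, litter-matched and of the CD1/ICR stock, each gave a library of 20000 cells with high GFP (GUCY2Chi) and a library of 20000 cells with medium GFP (GUCY2Cmed), 10 libraries in all. All mice carried the transgene, and no treatment is named. The reporter marks cells by the strength of GUCY2C promoter activity, so both groups can hold several cell types. The libraries bear the numbers 2, 7, 12, 14 and 15 in each group, which were taken as those of the mice.

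A neurite is held up by a core of microtubules and, in thicker axons, by neurofilaments. Microtubules are built from alpha- and beta-tubulin and are stabilised or spaced by proteins such as tau, MAP1B and doublecortin, whereas stathmins bind free tubulin and favour disassembly. Growing tips are rich in GAP43. Neuropod cells, enteroendocrine cells with a basal process that contacts neurons, have been described with neuronal cytoskeletal proteins. Transcripts of the same genes are abundant in neurons of the brain and of peripheral ganglia.

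The total count of a library on genes was 13090212 to 13520800 for GUCY2Chi cells and 10903958 to 15307932 for GUCY2Cmed cells. Levels are given as cpm, TMM-scaled counts relative to library size, and as mean ± SD over 5 libraries. The labelled cell types were checked against their markers. All 14 enteroendocrine genes listed were higher in GUCY2Chi cells, where their summed level was 39130 to 156300 cpm, against 115 to 313 cpm in GUCY2Cmed cells. The 10 enterocyte genes summed to between 48040 and 65370 cpm in GUCY2Cmed cells. In GUCY2Chi cells they summed to 2731 to 3772 cpm in mice 2, 7 and 14 and to 27070 and 27630 cpm in mice 12 and 15. Transcripts known from excitatory neurons of the forebrain were counted in every library. The 18 forebrain genes listed summed to 364 to 2969 cpm in GUCY2Chi cells and 165 to 1625 cpm in GUCY2Cmed cells, and 0 of the 18 passed the test between the groups. Since the neurite genes are also neuronal transcripts, each was set against Camk2a, a calcium-dependent kinase of forebrain synapses, and Nrgn, a calmodulin-binding protein of the same neurons. Some of the 18 genes did not follow Camk2a. In GUCY2Cmed cells the ratios of Ppp3r1 and Bcl11b to Camk2a ranged 28.5-fold and 37.8-fold. Ppp3r1 alone stood at 97.5 cpm in the GUCY2Cmed library of mouse 7, where the sum was 165 cpm. In libraries low in Camk2a the sum is therefore not a measure of forebrain RNA alone. In bulk RNA, fewer cells of a type and less RNA per cell cannot be told apart.

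The level of these forebrain transcripts varied between the libraries of each group. In GUCY2Chi cells Camk2a stood at 2.02, 30.5, 25.2, 2.54 and 81.8 cpm in mice 2, 7, 12, 14 and 15, the order used throughout. In GUCY2Cmed cells it stood at 35.3, 1.04, 43.8, 34.4 and 16.7 cpm. The GUCY2Chi libraries of mice 2 and 14 and the GUCY2Cmed library of mouse 7 were low, with 30, 33 and 13 Camk2a reads, and the GUCY2Chi library of mouse 15 was highest. Nrgn followed the same order at between 8.61 and 11.9 reads per Camk2a read in 9 libraries and 8.54 in the GUCY2Cmed library of mouse 7. The groups did not differ beyond their spread in either gene (log2 fold change 0.12, SE 0.97, adjusted p = 0.949 for Camk2a, and 0.08, SE 1.04, adjusted p = 0.968 for Nrgn).

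Of the 10 neurite genes, 1 was higher in GUCY2Chi cells and 0 were lower at an adjusted p under 0.01. Among all genes tested, 13.9% were higher and 8.79% lower at the same threshold. The gene was Tubb2b, a beta-tubulin. Map1b came next, with a larger spread, and the other 8 genes had log2 fold changes between 0.03 and 1.15. The fit was also run on simulated counts in which 200 of 15703 genes were changed. It called 36 of 100 genes changed 4-fold and 0 of 100 changed 2-fold. In the data 2186 genes were called higher and 1381 lower, so the adjusted threshold was less strict there than in the simulation. The simulated shares are therefore no measure of the power in these data. Genes short of the threshold may still differ. The median log2 fold change of the 10 genes was 0.65, against 0.09 over all genes tested. Every GUCY2Chi library was above every GUCY2Cmed library in Tubb2b and Map1b, a separation that 16.7% of all genes tested showed. Tubb2b, Map1b and Nefm were higher in GUCY2Chi cells in each of the 5 mice, as were 24.2% of all genes tested. With library size alone in place of TMM scaling, the median log2 fold change over all genes moved from 0.09 to 0.39, and Tubb2b was still the only neurite gene past the threshold. The plot of levels in each library shows the lines of Tubb2b and Map1b rising in every mouse, whereas those of Stmn2, Gap43 and Mapt cross like the lines of Camk2a and Nrgn.

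**Figure D1:**
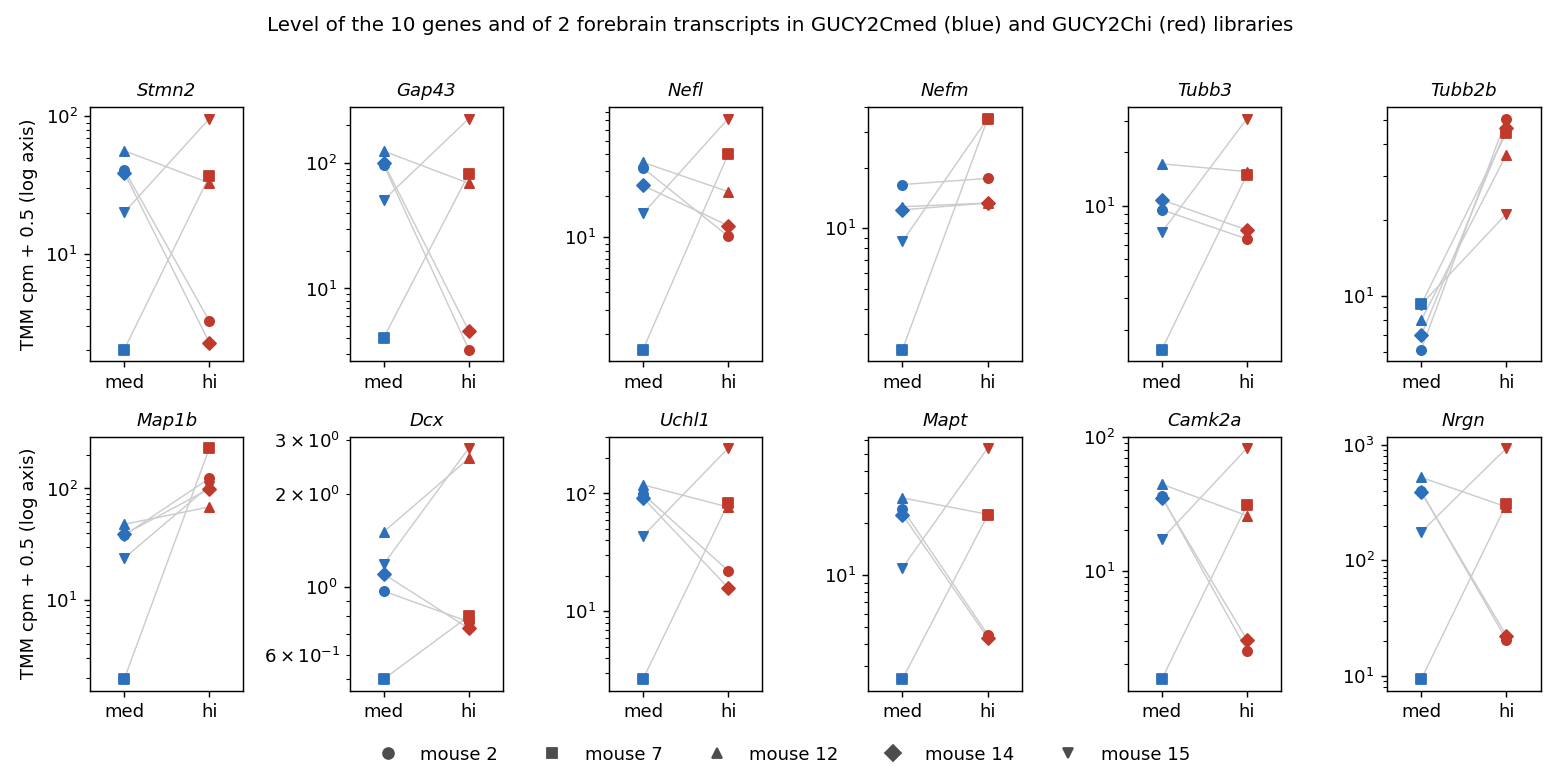
Level of each neurite gene and of Camk2a and Nrgn, in TMM-scaled cpm plus 0.5 on a log axis, with 1 point per library and a line joining both libraries of a mouse. Tubb2b stands at 20.7 to 50.0 cpm in GUCY2Chi libraries (red) and 5.62 to 8.75 cpm in GUCY2Cmed libraries (blue), while Stmn2 and Gap43 fall and rise with the 2 forebrain transcripts.

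Among the tubulins, Tubb2b (ENSMUSG00000045136, chr13:34126748-34130466 of GRCm38, minus strand) encodes a beta-tubulin that is abundant in the developing brain. It was counted at 50.0, 43.9, 35.9, 45.8 and 20.7 cpm in GUCY2Chi cells and at 5.62, 8.75, 7.49, 6.46 and 8.73 cpm in GUCY2Cmed cells. The lowest GUCY2Chi library, that of mouse 15, was above the highest GUCY2Cmed library. The means were 39.3 ± 11.6 and 7.41 ± 1.38 cpm, and the log2 fold change was 2.40 (SE 0.25, adjusted p = 5.68e-05). Its order among GUCY2Chi libraries did not follow Camk2a. The libraries of mice 2 and 14, with the fewest Camk2a reads, held 744 and 594 reads of Tubb2b, and that of mouse 15, with 1299 Camk2a reads, held 328. The library of mouse 15 also had the lowest enteroendocrine sum, 39130 cpm. Tubb2a, whose coding sequence is nearly identical and with which reads may be shared, stood at 84.8 ± 24.1 cpm in GUCY2Chi cells and 42.4 ± 12.5 cpm in GUCY2Cmed cells and missed the threshold (log2 fold change 1.0, SE 0.26, adjusted p = 0.0111). How the counting treated reads that match both genes is not given in the sources used here, so the level of each is uncertain.

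Tubb3 (ENSMUSG00000062380, chr8:123411424-123422015, plus strand) encodes the beta-tubulin used as a marker of neurons. Its levels were 5.98, 14.5, 15.1, 6.78 and 30.5 cpm in GUCY2Chi cells. In GUCY2Cmed cells they were 8.99, 1.04, 16.7, 10.3 and 6.59 cpm. The ranges overlapped, and GUCY2Chi cells were higher in 2 of 5 mice, those in which they also held more Camk2a. The log2 fold change was 0.74 (SE 0.60, adjusted p = 0.372). The libraries low in Camk2a nevertheless differed between the groups in read number. Tubb3 had 89 and 88 reads in the GUCY2Chi libraries of mice 2 and 14, beside 30 and 33 reads of Camk2a. It had 13 reads in the GUCY2Cmed library of mouse 7, beside 13 reads of Camk2a. RefSeq's promoter table for GRCm38.p6 held an entry for 4 of the 10 genes, Tubb3, Map1b, Dcx and Uchl1. The bases before the start of Tubb3 are shown because it is the beta-tubulin by which neuron-like cells are often identified (chr8:123411303-123411423, plus strand, 121 bases, of which 67.8% are G or C). Capitals mark GGGCGG, the letters of a GC box. This and the later sequences are written in the direction of transcription.
Tubb3: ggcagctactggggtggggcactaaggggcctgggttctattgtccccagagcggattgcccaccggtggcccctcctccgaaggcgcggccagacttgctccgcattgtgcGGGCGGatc

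Among the proteins that bind microtubules, Map1b (ENSMUSG00000052727, chr13:99421446-99516540, minus strand) encodes a protein of growing axons. Its levels were 123, 229.7, 67.8, 98.8 and 105 cpm in GUCY2Chi cells. In GUCY2Cmed cells they were 37.4, 1.45, 47.2, 38.2 and 23.2 cpm. The ranges did not overlap, and the means were 125 ± 61.9 and 29.5 ± 17.9 cpm. The log2 fold change was 2.08 (SE 0.64), with an adjusted p = 0.0236 that missed the threshold of 0.01. Without the GUCY2Cmed library of mouse 7 it passed, with a log2 fold change of 1.77 and an adjusted p = 0.00379. DESeq2, run on all 10 libraries, called it (log2 fold change 2.08, adjusted p = 0.00325), and with the mouse as a block in edgeR the adjusted p was 0.0961. In the libraries lowest in Camk2a it had 1825 and 1282 reads in GUCY2Chi cells of mice 2 and 14, and 18 reads in GUCY2Cmed cells of mouse 7. Those 18 reads are the fewest of the 10 libraries.

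The bases before the start of Map1b are shown because it had the largest difference relative to Camk2a (chr13:99516603-99516852, minus strand, 250 bases, of which 66.4% are G or C). This stretch does not reach the start of the counted gene model, at base 99516540. Of the 6-letter motifs searched on both strands, CAGATG and CAGCTG as E-boxes, TATAAA as a TATA box and GGGCGG as a GC box, 3 were found and are in capitals, CAGATG from base 38, TATAAA from base 152 and GGGCGG from base 212. The found motifs do not overlap. Of 32851 RefSeq windows of that length, 14.4% hold CAGATG, 13.0% CAGCTG, 12.4% TATAAA and 32.7% GGGCGG. In the first 121 bases of these windows, the part printed for Tubb3, GGGCGG is held by 12.9%, CAGATG by 7.30%, TATAAA by 6.07% and CAGCTG by 6.05%. Those bases are the part of each window farthest from the RefSeq start.
Map1b: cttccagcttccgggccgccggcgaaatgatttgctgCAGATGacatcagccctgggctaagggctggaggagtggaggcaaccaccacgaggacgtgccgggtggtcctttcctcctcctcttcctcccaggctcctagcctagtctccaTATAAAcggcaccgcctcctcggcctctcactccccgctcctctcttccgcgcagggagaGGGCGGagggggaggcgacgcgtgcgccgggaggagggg

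Mapt (ENSMUSG00000018411, chr11:104231390-104332090, plus strand) encodes tau, which binds microtubules along the axon. It was counted at 4.03, 21.6, 22.0, 3.85 and 53.7 cpm in GUCY2Chi cells and at 23.6, 2.01, 27.4, 21.9 and 10.5 cpm in GUCY2Cmed cells. The ranges overlapped almost entirely, with GUCY2Chi cells higher in 2 of 5 mice (log2 fold change 0.30, SE 0.76, adjusted p = 0.805). Dcx (ENSMUSG00000031285, chrX:143855842-143933311, minus strand) encodes doublecortin, which bundles microtubules in migrating young neurons. It had 3 to 37 reads in GUCY2Chi libraries and 0 to 14 in GUCY2Cmed libraries. The highest levels, 2.12 and 2.33 cpm, were those of GUCY2Chi cells of mice 12 and 15, which had the largest enterocyte sums among GUCY2Chi libraries. GUCY2Cmed libraries had larger enterocyte sums, 48040 to 65370 cpm, and at most 1.01 cpm of Dcx. Dcx was listed at 0 in the GUCY2Cmed library of mouse 7. For a count of 0 the upper 95% limit of the expected count is about 3 reads, which correspond to 0.241 cpm there. At this depth no difference was detectable (log2 fold change 0.91, SE 0.88, adjusted p = 0.460), and without the GUCY2Chi libraries of mice 12 and 15 the log2 fold change was -1.0.

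The neurofilament genes lie side by side on chromosome 14. Nefl (ENSMUSG00000022055, chr14:68083863-68089095, plus strand) encodes the light subunit, around which neurofilaments assemble, and Nefm (ENSMUSG00000022054, chr14:68082590-68124846, minus strand) the medium subunit. The Nefm model spans Nefl on the opposite strand, and whether reads were counted by strand is not given in the sources used here, so reads of one may have been assigned to the other. Nefl stood at 9.68, 39.4, 20.9, 11.6 and 71.7 cpm in GUCY2Chi cells and at 31.2, 1.04, 34.3, 23.2 and 14.4 cpm in GUCY2Cmed cells. The ranges overlapped, and GUCY2Chi cells were higher in 2 of 5 mice (log2 fold change 0.56, SE 0.73, adjusted p = 0.601). Nefm stood at 17.2, 34.4, 12.9, 12.9 and 34.6 cpm in GUCY2Chi cells and at 16.0, 2.01, 12.3, 11.9 and 8.13 cpm in GUCY2Cmed cells. GUCY2Chi cells were higher in each mouse, by little in mice 2, 12 and 14, and the ranges overlapped (log2 fold change 1.15, SE 0.48, adjusted p = 0.0794). Among the GUCY2Chi libraries Nefm varied 2.69-fold and Camk2a 40.6-fold.

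Stmn2 and Gap43 are genes of the growth cone, the motile tip of a growing neurite. Stmn2 (ENSMUSG00000027500, chr3:8509360-8561606, plus strand) encodes a stathmin that destabilises microtubules there. It stood at 2.76, 36.4, 32.3, 1.77 and 96.0 cpm in GUCY2Chi cells and at 40.4, 1.53, 55.9, 38.6 and 19.6 cpm in GUCY2Cmed cells. Gap43 (ENSMUSG00000047261, chr16:42248442-42340651, minus strand), a membrane protein of the growth cone, stood at 2.76, 81.3, 68.4, 4.09 and 226 cpm in GUCY2Chi cells and at 96.6, 3.53, 124, 100 and 50.2 cpm in GUCY2Cmed cells. In both genes the 3 libraries low in Camk2a were the 3 lowest and the GUCY2Chi library of mouse 15 the highest. Neither differed between the groups beyond the spread of the libraries (log2 fold change 0.12, SE 0.98, adjusted p = 0.949 for Stmn2, and 0.03, SE 1.04, adjusted p = 0.988 for Gap43). Their sign was negative with the mouse as a block in edgeR, at -0.60 and -0.86.

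Uchl1 (ENSMUSG00000029223, chr5:66676091-66687234, plus strand) encodes PGP9.5, a ubiquitin hydrolase by which nerve fibres are stained. Its levels were 21.7, 82.1, 76.2, 15.3 and 242 cpm in GUCY2Chi cells. In GUCY2Cmed cells they were 98.1, 2.17, 118, 91.4 and 43.1 cpm. The ranges overlapped, and GUCY2Chi cells were higher in 2 of 5 mice (log2 fold change 0.31, SE 0.86, adjusted p = 0.827). The antisense model Uchl1os overlaps its start and had at most 1 read in a library. The bases before its start are shown because its ratio to Nrgn was the only one among the 10 genes with no overlap between the groups (chr5:66675871-66676090, plus strand, 220 bases, of which 48.2% are G or C). None of the 4 motifs is written in this window. In the first 220 bases of the RefSeq windows CAGATG is held by 13.0%, CAGCTG by 11.4%, TATAAA by 9.95% and GGGCGG by 28.5%.
Uchl1: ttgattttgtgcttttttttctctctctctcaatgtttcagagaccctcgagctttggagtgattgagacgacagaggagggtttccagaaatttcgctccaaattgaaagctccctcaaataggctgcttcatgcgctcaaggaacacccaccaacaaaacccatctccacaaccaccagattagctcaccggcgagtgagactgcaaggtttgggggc

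Compared per kilobase of gene model, which the table gives, the genes differed in level. In GUCY2Chi cells Uchl1 and Gap43 had the highest means, 53.6 ± 56.1 and 50.2 ± 59.7 cpm per kb, followed by Tubb2b with 17.1 ± 5.05 cpm per kb. Nefl, Map1b, Tubb3 and Stmn2 lay between 6.04 and 9.07 cpm per kb, Nefm and Mapt at 3.87 ± 1.93 and 2.79 ± 2.70, and Dcx at 0.0830 ± 0.0850. In GUCY2Cmed cells Gap43 and Uchl1 were again highest, at 49.2 ± 31.6 and 43.2 ± 28.8 cpm per kb, whereas Tubb2b stood at 3.23 ± 0.60 and Map1b at 1.86 ± 1.13. Most neighbours in these orders lay no further apart than the larger SD of the pair. The exceptions were Tubb2b above Nefl and Mapt above Dcx in GUCY2Chi cells, and Uchl1 above Nefl and Nefm above Dcx in GUCY2Cmed cells. Tubb2b had the smallest spread of the 10 genes in each group, with its highest library 2.42-fold above its lowest in GUCY2Chi cells and 1.56-fold in GUCY2Cmed cells. In Stmn2, Gap43 and Uchl1 the highest and lowest libraries of a group differed between 15.8-fold and 81.9-fold.

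Within a library the ratio of 2 genes needs no scaling. Ratios of counts were compared between the groups by exact two-sided permutation tests on the log2 scale, 20 tests for 10 genes and 2 denominators, unadjusted, in which 5 libraries against 5 allow no p below 0.00794. The shuffles ignored which libraries came from the same mouse, so these p-values do not take the pairing into account. Map1b and Uchl1, 2 of the 10 genes, had a higher ratio in GUCY2Chi cells at p under 0.05 with either denominator, and 1 gene, Gap43, had a lower ratio to Camk2a. Among all genes tested, the ratio to Camk2a was higher at this level for 6.75% and lower for 1.31%, and the ratio to Nrgn was higher for 5.87% and lower for 0.879%.

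Gap43 and Stmn2 kept narrow ratios to Camk2a in GUCY2Cmed cells. In GUCY2Cmed cells the ratio of Gap43 to Camk2a lay between 2.74 and 3.38, while Camk2a itself varied 42.0-fold. In GUCY2Chi cells it was 1.37, 2.67, 2.71, 1.61 and 2.76. It was lower than in GUCY2Cmed cells in 5 of 5 mice (log2 difference -0.47, exact permutation p = 0.0159), with values under 2 in the libraries of mice 2 and 14. Its ratio to Nrgn was also lower in 5 of 5 mice, with a p that missed the threshold (log2 difference -0.42, exact permutation p = 0.0873). The ratio of Stmn2 to Camk2a lay between 1.12 and 1.46 in GUCY2Cmed cells and was 1.37, 1.19, 1.28, 0.697 and 1.17 in GUCY2Chi cells. These ranges overlapped (log2 difference -0.14, exact permutation p = 0.635). In both genes no GUCY2Chi library held more reads per Camk2a read than the highest GUCY2Cmed library.

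In GUCY2Cmed cells Uchl1 kept the tightest ratio to Nrgn of the 10 genes, between 0.226 and 0.249, a 1.10-fold range. In GUCY2Chi cells it was 1.08, 0.269, 0.263, 0.701 and 0.259. Every GUCY2Chi library was above every GUCY2Cmed library, as for 1.19% of all genes tested, and the log2 difference was 0.82 (exact permutation p = 0.00794, the smallest possible). The corresponding share for Camk2a was 1.53%, and no neurite gene showed it. The ratio of Uchl1 to Camk2a was 10.7, 2.69, 3.02, 6.03 and 2.96 in GUCY2Chi cells against 2.08 to 2.78 in GUCY2Cmed cells (log2 difference 0.77, exact permutation p = 0.0238, higher in 5 of 5 mice). The rise was large in mice 2 and 14 and small in the others. At the median GUCY2Cmed ratio, the Camk2a reads of each GUCY2Chi library would go with fewer Uchl1 reads than were counted, and the reads above that made up 75.2% of Uchl1 reads in mouse 2, 55.9% in mouse 14 and 1.28% to 12.1% in the other 3 mice. With the summed forebrain list as denominator the difference was 0.30 (exact permutation p = 0.794). That sum holds genes, such as Ppp3r1, whose level did not follow Camk2a. It also holds Olfm1, at 168 and 127 cpm in the GUCY2Chi libraries of mice 2 and 14. The ratio of Olfm1 to Camk2a was itself higher in GUCY2Chi cells (log2 difference 1.31, exact permutation p = 0.00794).

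Map1b kept a ratio to Camk2a of 1.06 to 1.39 in GUCY2Cmed cells, the library of mouse 7 with its 18 reads included. In GUCY2Chi cells the ratio was 60.8, 7.53, 2.69, 38.8 and 1.28. The log2 difference was 2.92 (exact permutation p = 0.0238), and the ratio was higher in 4 of 5 mice, the exception being mouse 15, whose GUCY2Chi library had the most Camk2a. The ratio to Nrgn gave a log2 difference of 2.97 (exact permutation p = 0.0238). The reads above the median GUCY2Cmed ratio were 98.2%, 85.2%, 58.7%, 97.1% and 13.5% of Map1b reads in GUCY2Chi cells. The plot against Camk2a shows GUCY2Cmed libraries of Map1b along 1 line and GUCY2Chi libraries above it, farthest in mice 2 and 14 and nearest in mouse 15.

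**Figure D2:**
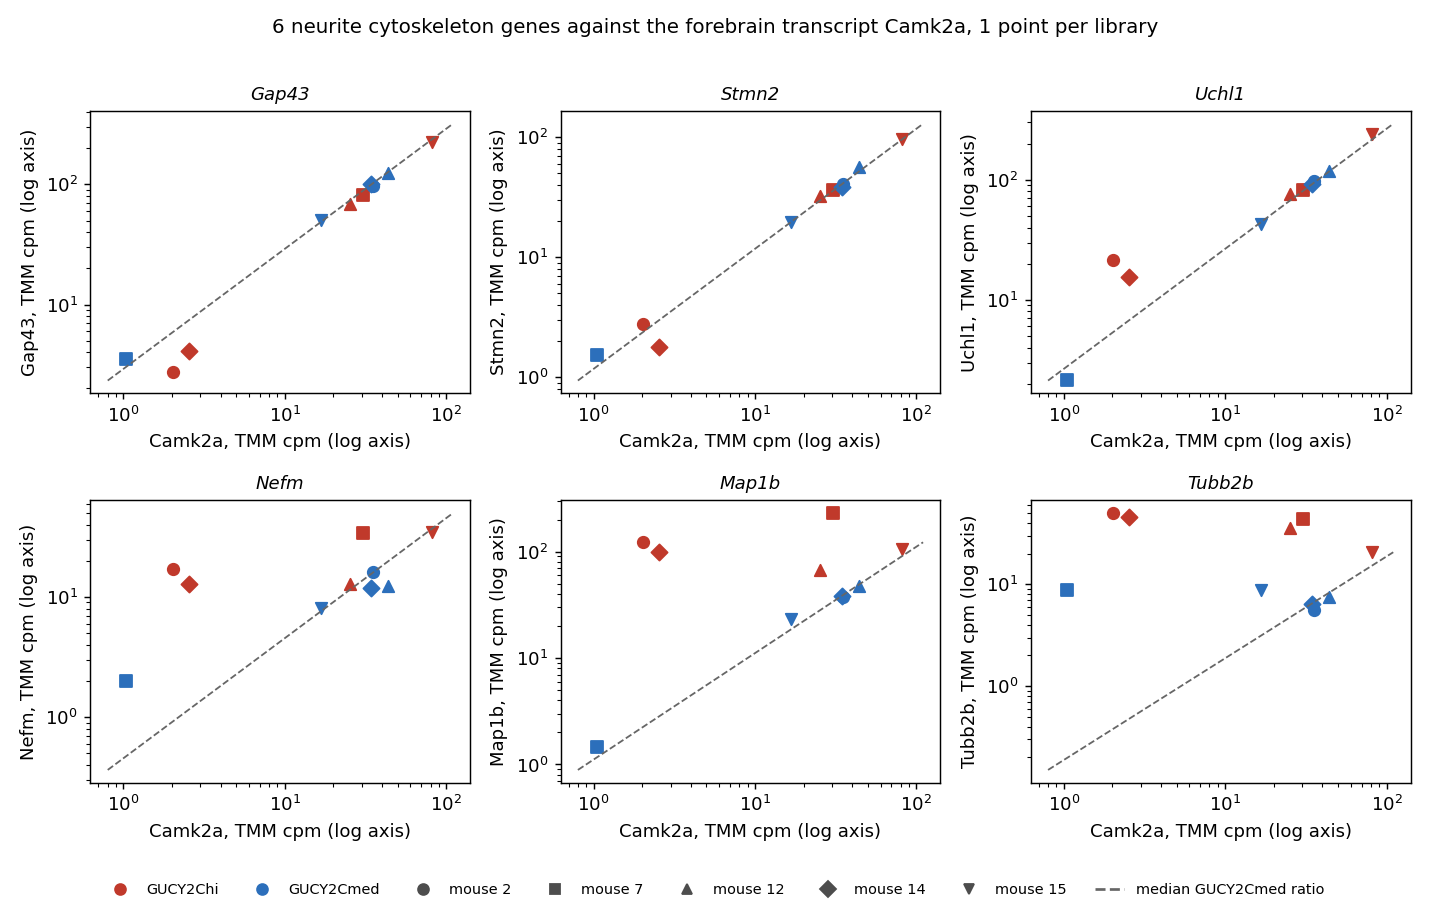
Level of 6 neurite genes against Camk2a in each library, in TMM-scaled cpm on log axes, with a dashed line at the median ratio of the GUCY2Cmed libraries. Gap43 lies along the line except for lower values in the GUCY2Chi libraries of mice 2 and 14, Uchl1 lies well above it in the same libraries, and Tubb2b stays near 5.62 to 8.75 cpm in GUCY2Cmed libraries whatever the level of Camk2a.

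Tubb2b had no constant ratio in GUCY2Cmed cells. It was 0.159, 0.171, 0.188 and 0.523 in mice 2, 12, 14 and 15 and 8.38 in mouse 7, a 52.7-fold range. In GUCY2Chi cells the ratio was 24.8, 1.44, 1.42, 18 and 0.253. The log2 difference was 2.66 (exact permutation p = 0.135), and without the GUCY2Cmed library of mouse 7 it was 3.69 (exact permutation p = 0.0318). Nefm, Tubb3 and Mapt had a high ratio in the same library, 1.92, 1.0 and 1.92, against at most 0.487, 0.395 and 0.668 in the other GUCY2Cmed libraries. Their log2 differences to Camk2a were 1.59, 1.23 and 0.39 (exact permutation p = 0.175, 0.159 and 0.302). Without that library the ratios of Tubb3 and Mapt to Camk2a were higher in GUCY2Chi cells (log2 difference 1.55 and 0.70, exact permutation p = 0.0476 and 0.0318), and the count of neurite genes with a higher ratio went from 2 to 5 with either denominator.

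Nefl had a narrow ratio to Camk2a in GUCY2Cmed cells, 0.675 to 1.0, and was at 4.8, 1.29, 0.829, 4.58 and 0.876 in GUCY2Chi cells. It was higher in 5 of 5 mice, although the ranges overlapped (log2 difference 1.13, exact permutation p = 0.0794). Of the GUCY2Chi reads of Nefl, 82.1% in mouse 2, 81.2% in mouse 14 and 33.3% in mouse 7 lay above the median GUCY2Cmed ratio. In the libraries of mice 12 and 15 the observed reads were within 3.95% of that ratio. For Dcx, with few reads, the log2 difference was 1.06 (exact permutation p = 0.190). The plot of ratios shows the GUCY2Chi libraries of mice 2 and 14 at the top of each gene from Nefl to Map1b, and at the bottom for Gap43.

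**Figure D3:**
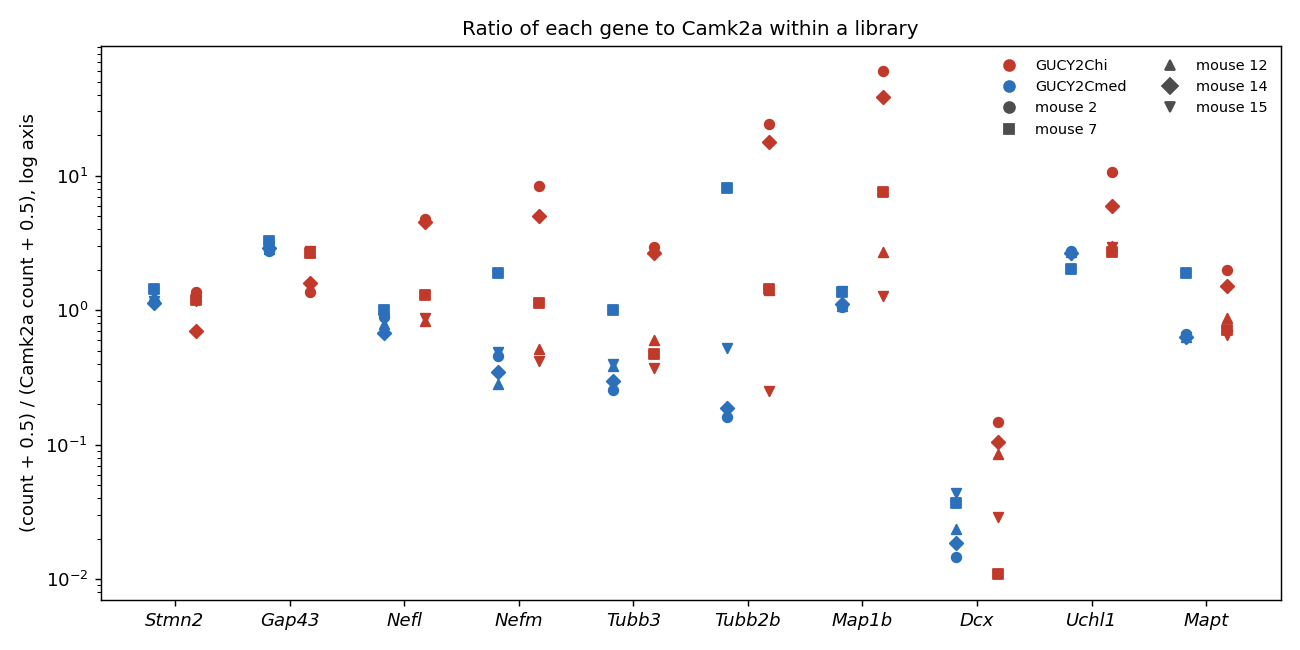
Reads of each neurite gene per Camk2a read in every library, after adding 0.5 to each count, on a log axis. GUCY2Chi libraries (red) of mice 2 and 14 stand highest for Map1b (60.8 and 38.8 before 0.5 is added) and Uchl1 (10.7 and 6.03), and for Gap43 they lie below all GUCY2Cmed libraries (blue).

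The groups were also compared with the log2 mean of Camk2a and Nrgn as a further term of the edgeR fit over all genes. The term gives both groups the same slope on the forebrain level. Map1b varied 3.39-fold among GUCY2Chi and 32.6-fold among GUCY2Cmed libraries, where Camk2a varied 40.6-fold and 42.0-fold. Where slopes differ between the groups, as there, the fold change of this fit is not a single value that holds at every forebrain level. In this fit 4 of the 10 genes were higher in GUCY2Chi cells and 0 were lower, where 16.4% of all genes, 2577, were higher and 1884 were lower. They were Tubb2b (log2 fold change 2.33, SE 0.21, adjusted p = 1.40e-05), Map1b (2.62, SE 0.62, adjusted p = 0.00574), Nefm (1.43, SE 0.32, adjusted p = 0.00453) and Tubb3 (1.04, SE 0.25, adjusted p = 0.00622). The SE of Tubb3 was 0.60 without the term. Nefl (0.98, SE 0.32, adjusted p = 0.0283) and Uchl1 (0.70, SE 0.30, adjusted p = 0.0734) did not pass, nor did Dcx, Mapt, Stmn2 and Gap43, at 1.03, 0.32, -0.04 and -0.36. The median of the 10 was 1.0, against 0.07 over all genes. The plot of both fits shows the bars of Stmn2, Gap43, Mapt and Tubb3 shrinking once the term is added.

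**Figure D4:**
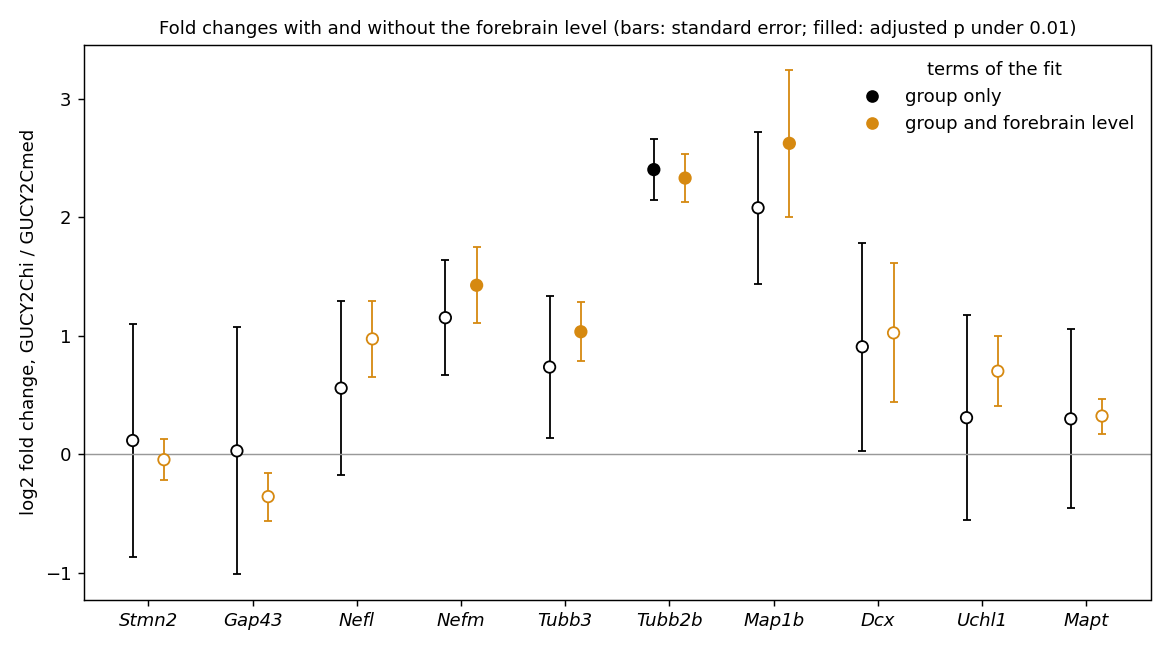
Log2 fold change of each neurite gene between GUCY2Chi and GUCY2Cmed cells, with its SE as derived from the test statistic. Black is the edgeR fit on group alone and orange the fit with the forebrain level as a further term. Points are filled where the adjusted p was under 0.01. Tubb2b is filled in both fits, and Nefm, Tubb3 and Map1b only with the term.

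Of the 4 calls, only that of Tubb2b held whichever library was left out. With the mouse as a block in the same fit, Tubb2b (adjusted p = 0.00114) and Nefm (log2 fold change 1.42, adjusted p = 0.00907) passed, whereas Map1b (2.71, adjusted p = 0.0182) and Tubb3 (1.07, adjusted p = 0.0136) did not. Between 1 and 5 genes passed when 1 library was left out. There were 2 without the GUCY2Chi library of mouse 7 or 14 or the GUCY2Cmed library of mouse 2 or 7, and 1 without the GUCY2Cmed library of mouse 14 or 15. Without the GUCY2Chi library of mouse 15 and the GUCY2Cmed library of mouse 7, the extremes of the forebrain level, Tubb2b and Map1b passed and Nefm (1.07, adjusted p = 0.0616) and Tubb3 (0.66, adjusted p = 0.110) did not.

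The relatives of these genes were counted in the same way, in the fit on group alone. In that fit 13.9% of all genes tested were higher and 8.79% lower, and with the forebrain term 16.4% were higher. Of 11 other tubulin genes tested, 3 were higher in GUCY2Chi cells and 0 lower, and with the forebrain term 5 were higher, with Tubb2a and Tubb4a added, and 1, Tuba1c, was lower. Tuba1a, an alpha-tubulin of neurons, stood at 378 ± 115 cpm in GUCY2Chi cells and 37.4 ± 20.8 cpm in GUCY2Cmed cells (log2 fold change 3.34, SE 0.52, adjusted p = 7.73e-04), a level that is uncertain where reads also match close alpha-tubulin genes. Tuba8 and Tubb6 rose by 4.32 and 1.94 on the log2 scale, at means of 5.37 and 2.54 cpm in GUCY2Chi cells. Tubb5, a tubulin of many cell types, stood at 79.7 ± 30.8 and 87.0 ± 27.8 cpm. The summed level of the 11 tubulins was 1315 to 1937 cpm in GUCY2Chi cells and 1404 to 2255 cpm in GUCY2Cmed cells, and the ranges overlapped.

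Of 12 other microtubule-associated proteins and doublecortin relatives, 3 were higher and 0 lower in either fit, against 13.9% and 16.4% of all genes higher, namely Map6, a protein of cold-stable microtubules (log2 fold change 3.05, adjusted p = 0.00277), Dclk3 (2.12, adjusted p = 0.00251) and Map1s, a relative of Map1b (1.14, adjusted p = 0.00210). Of 12 other growth cone proteins, 4 were higher and 0 lower, and 7 were higher with the forebrain term, which added Crmp1, Dbn1 and Gprin1. Marcks and Marcksl1, which bind actin and membrane, stood at 204 ± 60.8 and 113 ± 38.1 cpm in GUCY2Chi cells and 45.2 ± 5.42 and 19.5 ± 7.61 cpm in GUCY2Cmed cells. Dpysl3 and Dpysl2, collapsin response mediators, had log2 fold changes of 2.67 (adjusted p = 6.50e-05) and 1.59 (adjusted p = 0.00389). Of 12 genes of axonal motors and their adaptors, Mapk8ip2, Mapk8ip1 and Kif21a were higher, by 2.71, 2.54 and 1.25 on the log2 scale, and 0 were lower, while the forebrain term added Kif3c. Of 3 other stathmins, 3 other neuronal intermediate filaments and 3 other ubiquitin hydrolases of the UCH family, 0 passed in either direction in either fit. The medians of these lists were 0.14 for tubulins, 0.73 for microtubule-associated proteins, 1.57 for growth cone proteins, 0.53 for motors, 0.94 for intermediate filaments, -0.06 for stathmins and -0.48 for hydrolases, beside 0.09 over all genes.

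**Figure D5:**
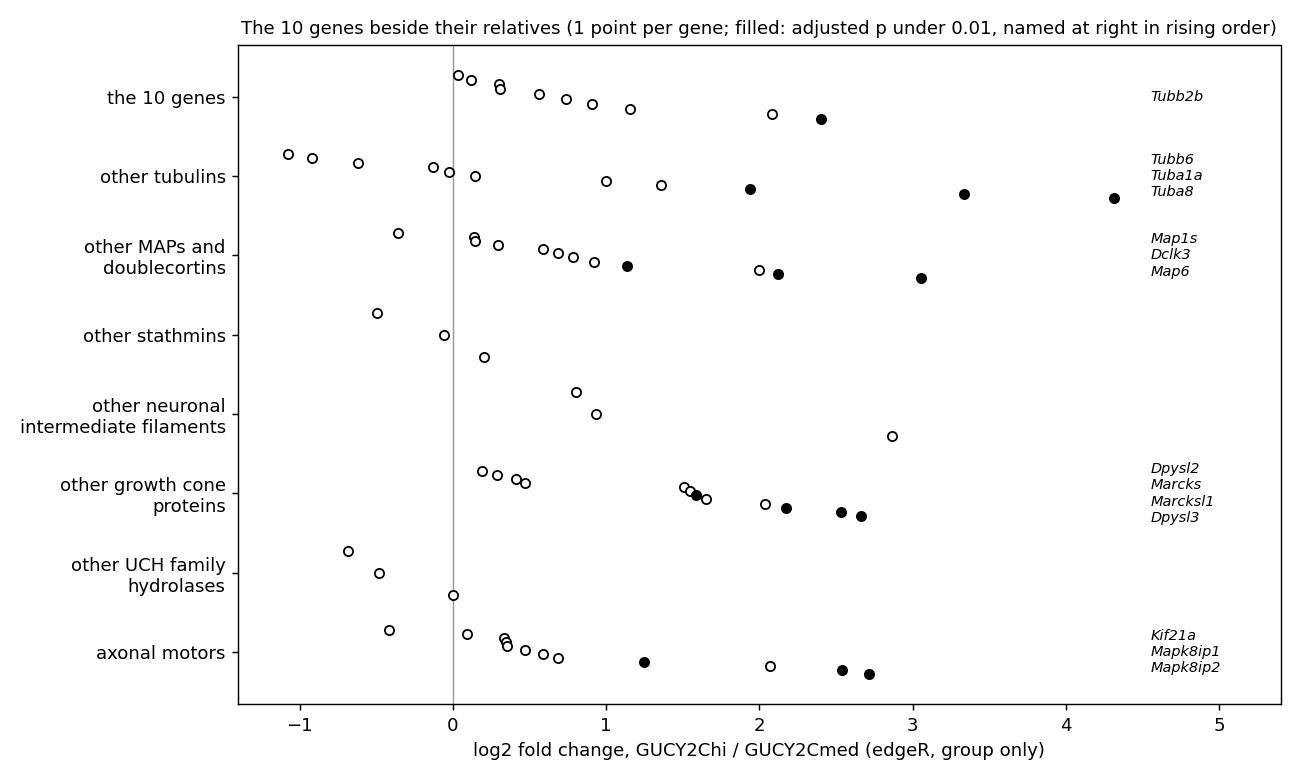
Log2 fold change between GUCY2Chi and GUCY2Cmed cells of each gene tested, in rows for the 10 neurite genes and 7 lists of relatives, filled and named at the right where the adjusted p was under 0.01. Tubb2b is the only filled point among the 10, and the lists of stathmins, intermediate filaments and hydrolases hold none.

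Other cell types that use these genes were looked for among the libraries. Of 8 genes that identify enteric neurons, Phox2a and Hand2 had too few reads to be tested, with at most 11 and 0 reads in a GUCY2Chi library and 0 in every GUCY2Cmed library, and Ret, a receptor also found outside neurons, was higher in GUCY2Chi cells (48.8 ± 20.4 against 0.486 ± 0.334 cpm, adjusted p = 6.95e-06). The 8 summed to 41.3 to 84.1 cpm in GUCY2Chi cells and 1.2 to 11.1 cpm in GUCY2Cmed cells. Of 8 genes of dorsal root ganglion neurons, Scn10a, Prdm12 and Mrgprd had no reads, and Trpv1 and Calca had at most 6 and 8. Isl1 of that list was higher in GUCY2Chi cells, and the 8 summed to 91.4 to 404 cpm there and 0.482 to 1.28 cpm in GUCY2Cmed cells. Of 6 enteric glia genes, Sox10 and Gfap had at most 12 and 7 reads and Foxd3 none, and 0 of the 3 tested passed (43.9 to 60.3 against 52.9 to 119 cpm summed). Of 8 genes of oligodendrocytes and astrocytes, Mag was higher and the 8 summed to 79.6 to 142 cpm against 35.4 to 91.0 cpm. The part of these cell types in the neurite genes was not tested.

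Over the 10 libraries, the genes whose log2 levels were most alike to those of each neurite gene were listed, as a description over libraries that differ in depth and forebrain level. Those of Stmn2 were Eno2, Snhg11 and Tceal3 (Pearson's r = 0.999 each), and those of Gap43 were Rab6b, Hpcal4 and Myt1l (0.998 to 0.999). Hpcal4 is also on the forebrain list. Those of Uchl1 were Hdgfl3, Basp1 and Lingo1 (0.995 to 0.997), and those of Mapt were Slc30a3, Rims1 and Atp2b2 (0.993 to 0.995). Nefl was most like Lmo3 and Gabbr1 (0.992 to 0.994), Nefm like Dgkg, Ptk2b and Camsap1 (0.976 to 0.982), and Tubb3 like Cbarp, Fam131a and B230217C12Rik (0.986 to 0.990). Map1b was most like Ramp2, Gnaz and Syn2 (0.983 to 0.984), and Tubb2b like Gch1, Ptov1 and Impdh1 (0.993 to 0.994). Dcx had the weakest likeness, to Dynll1, Tra2a and Calm3 (0.869 to 0.874).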

How the data were processed

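RNA of 10 sorted libraries was sequenced by the provider, which aligned paired-end reads with STAR and counted them per gene. The read counts, as deposited by the authors, are unnormalized whole numbers, and every count column belongs to a labelled library (0 unassigned). The deposited FPKM columns and the authors' own comparison (log2 fold changes and p-values, made with limma 3.40.6 and edgeR 3.26.8 per their processing notes) were not used. The labels name mm9, but 99.8% of 37708 gene symbols lie where GRCm38.p6 places them and 9.73% of 28564 where NCBIM37 does, so positions are on GRCm38.

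The study's filter was applied, which keeps genes above 0.5 cpm in 3 or more libraries. edgeR 4.0.16 (TMM, quasi-likelihood) in R 4.3.3 compared the groups over all genes at a Benjamini-Hochberg adjusted p under 0.01, with group alone and with the log2 mean cpm of Camk2a and Nrgn added. The SE given for the edgeR fits is the absolute log2 fold change divided by the square root of the quasi-likelihood F. Ratios of counts (0.5 added) were compared by exact permutation tests. limma 3.58.1 (voom) and DESeq2 1.42.0 were alternatives, as were the mouse as replicate block, other scalings, filters and denominators, and each library left out. The main edgeR fits, with and without the forebrain term, were tested on simulated counts that did not follow the forebrain level. In these counts 200 of 15703 genes were changed, fewer than were called in the data. The adjusted threshold was therefore stricter in the simulation. Of 100 genes changed 4-fold, 36 were called on group alone and 35 with the term. Of 100 changed 2-fold, 0 were called in either fit. There were 0 and 1 false calls. Figures were made in Python 3.11.15 with matplotlib 3.10.9. Per the labels the same 5 mice gave both groups, and same-numbered libraries were taken as those of 1 mouse, although the correlation of their deviations from the group means was -0.22 to 0.27. P-values rest on 5 mice, each with a library in both groups. The main fits and the permutation tests treated the 10 libraries as independent.

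All 10 neurite genes, Camk2a and Nrgn are named, with at most 4 called genes per list of relatives, the defining markers of cell types, and for each neurite gene the 3 genes (mean of at least 5 cpm) of highest Pearson correlation. Results for some genes of these lists are not reported here. Tubb2a and Tubb5 were named for sequence likeness and breadth of use after their values were seen. Genes of relatives called only with the forebrain term were also named after their values were seen. The genes and lists were chosen with earlier results of these data known. Intervals from counts of 0 cover counting error only. Promoter sequences are from RefSeq (GRCm38.p6).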

Additional observations from a re-analysis of the deposited data

Results flagged for a closer look

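Levels and ratios to Camk2a and Nrgn were examined in 60 sets of 5 libraries, 20 of levels and 40 of ratios. In 11 of them, all ratios, 1 library stood far from the other 4 by Dixon's criterion, which chance meets in about 1 set in 20. Sets that share a library or a denominator are not independent. Of the 11, 10 concern the GUCY2Cmed library of mouse 7, which had 13 reads of Camk2a and 111 of Nrgn. Its ratios to Camk2a were the highest of the group for Tubb2b (8.385), Nefm (1.923), Mapt (1.923) and Tubb3 (1) and the lowest for Uchl1 (2.077). Its ratios to Nrgn were the highest for Tubb2b (0.982), Nefm (0.2252), Mapt (0.2252), Stmn2 (0.1712) and Tubb3 (0.1171). It held 109, 25, 25, 13, 27 and 19 reads of Tubb2b, Nefm, Mapt, Tubb3, Uchl1 and Stmn2. The other set is the ratio of Stmn2 to Camk2a in GUCY2Chi cells, where the library of mouse 14, with 23 reads of Stmn2 and 33 of Camk2a, had a ratio of 0.697 against 1.17 to 1.37 in the others.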

How the results depend on the processing

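Tubb2b was called higher in GUCY2Chi cells under all 21 alternatives of the fit on group alone (log2 fold change 2.35 to 2.69) and all 15 with the forebrain term (2.21 to 2.60). The count of neurite genes higher was 2, with Map1b, by DESeq2, at an adjusted p under 0.05 and without the libraries of highest and lowest forebrain level, and 1 to 2 with a library left out. With the forebrain term the count was 2 with the mouse as replicate block and 2 without those extreme libraries, and 1 to 5 with a library left out. With the ratio to Camk2a or to Nrgn as measure it was 2 to 5 with a library left out, and taking the pairing into account, the ratio was higher in all 5 mice for 2 genes (Nefl and Uchl1) and 1 gene (Uchl1). Without the GUCY2Chi library of mouse 7 the ratio of Dcx also passed (log2 difference 1.63 to Camk2a and 1.68 to Nrgn), as did the lower ratio of Gap43 to Nrgn (-0.51), and without that of mouse 12 the ratio of Nefl to Camk2a (1.41). With the summed forebrain list as denominator Tubb3 passed (0.76, exact permutation p = 0.0159), and Uchl1 (0.30, exact permutation p = 0.794) and Gap43 (-0.94, exact permutation p = 0.190) did not. That sum also holds genes whose level did not follow Camk2a. No other call on a neurite gene changed with the replicate block. Signs turned for values that had not passed in the comparisons reported. With the replicate block in edgeR the log2 fold change was -0.60 for Stmn2, -0.86 for Gap43 and -0.0105 for Mapt, and with it in limma-voom -0.21 for Stmn2 and -0.61 for Gap43. With limma-voom alone these 2 were at -0.40 and -0.75. With a library left out, Uchl1 ranged from -0.49 to 0.68, Stmn2 from -0.72 to 0.54, Gap43 from -0.88 to 0.44 and Mapt from -0.36 to 0.66, each lowest without the GUCY2Chi library of mouse 15. Without the libraries of highest and lowest forebrain level, a choice made after seeing the data, the values were -0.84 for Uchl1, -0.00841 for Tubb3, -0.33 for Nefl, -1.06 for Stmn2, -1.23 for Gap43 and -0.69 for Mapt. Without the GUCY2Chi libraries of mice 12 and 15, chosen likewise, they were -0.78 for Uchl1, -1.0 for Dcx, -1.12 for Stmn2, -1.28 for Gap43 and -0.74 for Mapt. With the forebrain term Stmn2 was 0.0307 by limma-voom, 0.12 without the extreme libraries and -0.0858 to 0.0632 with a library left out, and Dcx was -0.0652 without the GUCY2Chi libraries of mice 12 and 15. With the forebrain list as denominator the ratio of Mapt differed by -0.0823, and the ratio of Stmn2 differed by -0.21 to 0.0268 (Camk2a) and -0.18 to 0.0571 (Nrgn) with a library left out. The causes of these changes were not tested. With 13 to 33 Camk2a reads in 3 libraries, ratios there carry large counting error. With 5 libraries per group, genes that vary with the forebrain level had an SE near 1 on the log2 scale.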
